A study of Mus musculus with 8 samples.

Results

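The genes described here are targets and secreted antagonists of bone morphogenetic protein (BMP) signalling. They are the 9 rows of the gene count table named Id1, Id2, Id3, Id4, Hey1, Hey2, Atoh8, Grem1 and Bmper, of 56748 rows in all. Polyadenylated RNA was sequenced from 8 mouse hearts, labelled as whole hearts, 7 days after transverse aortic constriction, an operation that narrows the aortic arch and loads the left ventricle with pressure. The 4 libraries labelled CMS7KO came from hearts in which Smad7 was to be deleted in cardiomyocytes by a Cre transgene that the aMHC promoter (of alpha myosin heavy chain) drives. The 4 libraries labelled ACRE came from control hearts with the same Cre transgene. Both groups therefore carried Cre and had the operation. The labels give C56BL mice aged 3 to 4 months, male sex for replicates 1 and 2 and female sex for replicates 3 and 4 in both groups, and call the samples independent. Hearts without the operation or without Cre are not part of the comparison, so neither the effect of pressure nor that of Cre was measured. The labels do not say whether the controls carried an altered Smad7 allele.

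BMPs are secreted ligands that signal through Smad1, Smad5 and Smad9, a branch separate from the Smad2/3 branch used by TGF-beta. The Id genes are classic direct targets of this branch. Id proteins hold a helix-loop-helix domain without a DNA-binding region, and they tie up basic helix-loop-helix (bHLH) partners such as E proteins. Hey1 and Hey2 encode bHLH repressors that respond to Notch and, in endothelium, also to BMP. Gremlin 1, encoded by Grem1, and the product of Bmper bind BMPs outside the cell and limit their access to receptors, and Bmper can also act as an enhancer of BMP signalling. In the heart, Id1, Id3 and Hey1 are known from endothelial and endocardial cells, and Hey2 also from ventricular cardiomyocytes.

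The promoter windows of Id2, Id3 and Hey2 are shown because they hold motifs linked to Smad or Notch signalling and because these genes stood at different places in the genotype comparison. Each runs from 250 bases before to 50 after the RefSeq start of the gene on GRCm38.p6, written 5′ to 3′ on the gene's strand. Capitals mark matches, on either strand, to GGCGCC (a GC-rich element bound by Smad1/5), CAGAC (the Smad box) or GTGGGAA (a site of the Notch cofactor RBPJ). Id3 is at chr4:136143572-136143871 on the plus strand, Hey2 at chr10:30842734-30843033 on the minus strand, and Id2 at chr12:25096043-25096342 on the minus strand.
Id2: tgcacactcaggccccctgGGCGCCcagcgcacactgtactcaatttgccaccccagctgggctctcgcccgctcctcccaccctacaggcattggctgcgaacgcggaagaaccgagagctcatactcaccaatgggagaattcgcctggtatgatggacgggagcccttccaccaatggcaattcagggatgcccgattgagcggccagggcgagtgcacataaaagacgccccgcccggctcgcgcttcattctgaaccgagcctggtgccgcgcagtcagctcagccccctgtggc
Id3: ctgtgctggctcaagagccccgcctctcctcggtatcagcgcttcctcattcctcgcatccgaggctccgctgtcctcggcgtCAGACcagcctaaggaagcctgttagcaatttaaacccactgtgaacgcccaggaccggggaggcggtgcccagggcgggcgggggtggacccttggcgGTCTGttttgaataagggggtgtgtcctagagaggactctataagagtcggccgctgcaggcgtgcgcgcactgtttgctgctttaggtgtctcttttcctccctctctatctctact
Hey2: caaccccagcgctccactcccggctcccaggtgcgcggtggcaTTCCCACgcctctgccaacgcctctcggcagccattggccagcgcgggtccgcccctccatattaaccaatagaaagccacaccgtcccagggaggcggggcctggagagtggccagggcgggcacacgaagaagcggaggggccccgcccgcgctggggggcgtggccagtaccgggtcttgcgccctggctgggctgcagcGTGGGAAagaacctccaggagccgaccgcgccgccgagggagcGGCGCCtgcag

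Promoter windows were found for 7 of the 9 genes, those other than Id1 and Hey1. GGCGCC occurred in the windows of 4 of these 7 (Id2, Id4, Hey2 and Grem1), against 11.9% of 32851 RefSeq windows of the same length. In Id2 it lay at bases -231 to -226 from the start, in Id4 at -148 to -143, in Grem1 at -78 to -73 and in Hey2 at 40 to 45. CAGAC, a short motif present in 49.6% of all windows, occurred in Id3, at -167 to -163 and as its reverse complement at -68 to -64, and in Grem1. GTGGGAA, present in 6.38% of all windows, occurred in Hey2 alone of these genes, at -207 to -201 as its reverse complement and at -4 to 3. The E box CACGTG, present in 7.15% of all windows, was found in Atoh8. The Smad palindrome GTCTAGAC, the cAMP response element TGACGTCA and TATAAA were found in 0 of the 7 windows. These windows had a GC content of 60.0 to 73.3%, against a median of 52.7% over all windows, which bears on how often GC-rich letters match. A match is a run of letters and not a measured binding site.

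Libraries held 12920435 to 17199600 reads counted in genes, and mitochondrial genes took 16.4 to 23.5% of them. Smad7, the targeted gene and an inhibitor of TGF-beta and BMP receptors, stood at 38.7 ± 5.47 CPM (read counts scaled to library size) in the libraries labelled CMS7KO and at 31.4 ± 5.07 CPM in those labelled ACRE (SD, n = 4 each; edgeR adjusted p = 0.415). Smad7 was thus not lower in the libraries labelled CMS7KO. Counts over the whole gene in whole hearts do not check the labels, and every direction below rests on them. ACRE 2 and ACRE 4 stood apart from the other 6 libraries on the first principal component, with scores of 63.6 and 76.4 against -48.0 to -11.3. The libraries ACRE 3 and CMS7KO 3, labelled female, had 0.314 and 0.569 CPM of Xist and 89.1 and 84.2 CPM of the Y-linked Ddx3y, so they did not match their sex label. Cardiomyocyte markers were abundant in all libraries: the 12 markers summed to 38613 to 63153 CPM in the libraries labelled CMS7KO and to 54702 to 115593 CPM in ACRE.

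None of the 9 genes passed an adjusted p of 0.05 for genotype with edgeR's quasi-likelihood test. Of the 16780 genes tested, 0.0358% did. An unadjusted p under 0.05 was reached by Id2 and Id3, 2 of the 8 genes tested, against 15.3% of all genes. DESeq2 called 1 of the 8, Id2, and over all 16780 genes it called 276 higher and 208 lower. With limma voom 0 of the 8 were called, and 3 genes higher and 2 lower over all. By sign alone 6 of the 8 were higher and 2 (Hey2 and Bmper) lower in the libraries labelled CMS7KO, with a median log2 fold change of 0.36, while the median of all tested genes was -0.01 and 49.4% of them were higher. Without ACRE 2 and ACRE 4 the signs were even, with 4 higher and 4 lower, and the median of the 8 was -0.01, against 0.01 over all genes. Leaving out ACRE 2 alone gave a median of 0.18 and leaving out ACRE 4 alone 0.21. Grem1 had no read in any library and could not be tested. In bulk tissue, fewer cells of a type and less RNA per cell cannot be told apart. All levels below are TMM-scaled CPM (edgeR's library scaling), and fold changes are CMS7KO over ACRE. Gene positions are those of the count table, whose build is not GRCm38, so they cannot be set against the promoter windows above.

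**Figure D1:**
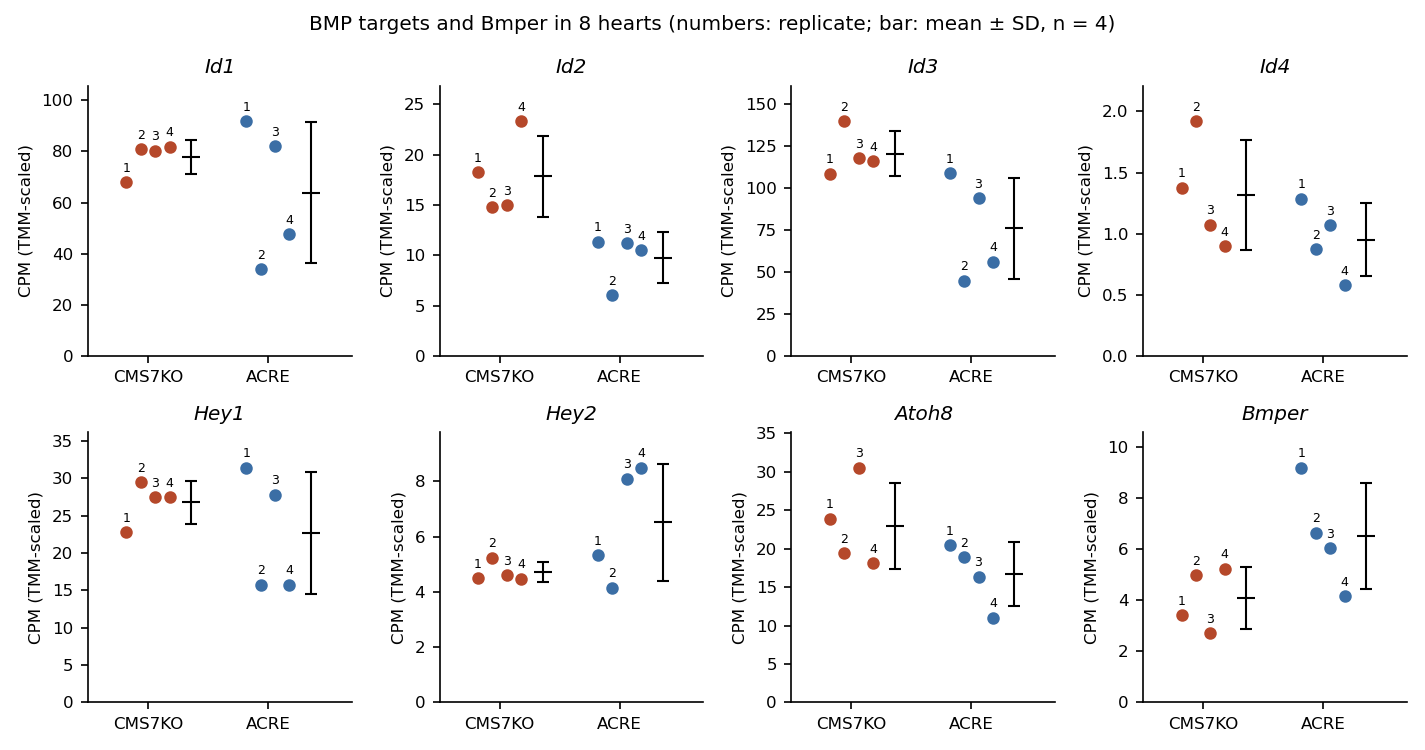
TMM-scaled CPM of the 8 genes with reads, with 1 point per library (number: replicate) and bars for mean ± SD (n = 4). For Id2 the 4 libraries labelled CMS7KO lie above the 4 ACRE libraries, and for Id1, Id3 and Hey1 replicates 2 and 4 of ACRE lie below all other points.

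Id2, which in the heart is expressed by several cell types and restrains E-protein activity, was the one gene of the set whose groups did not overlap. Over all tested genes the ranges did not overlap for 9.59%. Id2 (ENSMUSG00000020644, chromosome 12, 25143798 to 25147139) stood at 18.3, 14.8, 15.0 and 23.3 CPM in CMS7KO 1 to 4 and at 11.3, 6.03, 11.2 and 10.5 CPM in ACRE 1 to 4. Its lowest library labelled CMS7KO was above its highest ACRE library. The means were 17.8 ± 3.99 CPM in CMS7KO and 9.77 ± 2.52 CPM in ACRE (SD, n = 4 each), a 1.83-fold difference with a 95% confidence interval of 1.26 to 2.65. The log2 fold change of 0.87 (SE 0.24) had an unadjusted p of 0.00499 and an edgeR adjusted p of 0.222, rank 375 of 16780 genes. The adjusted p was 0.0486 with DESeq2 and 0.0148 with no filter on low counts. Over all alternatives it ran from 0.0148 to 0.552, always with the same sign. Without ACRE 2 and ACRE 4, left out after seeing the data, Id2 was 1.57-fold higher (interval 1.11 to 2.22, edgeR adjusted p = 0.249). Markers of several cell types had the same direction as Id2. Of macrophage markers, 10 of 12 were higher by sign, 8 of them without overlap (median log2 fold change 0.73). So were 11 of 11 fibroblast markers, 3 without overlap (median 0.69). Macrophage markers summed to 990 to 1199 CPM in the libraries labelled CMS7KO and 514 to 938 CPM in ACRE, and fibroblast markers to 4418 to 7869 CPM in CMS7KO and 3582 to 4126 CPM in ACRE. Also higher by sign were 3 of 3 tested atrial cardiomyocyte markers (Nppa, Myl7 and Myl4, median 1.48). So were 6 of 6 T and B cell (0.89), 5 of 5 erythroid (0.86) and 4 of 4 endocardial markers (0.57). For the atrial, T and B cell, erythroid and endocardial lists, the summed CPM overlapped between the groups. Of cardiomyocyte markers 0 of 12 were higher (median -0.52). Medians of the endothelial, arterial and lymphatic endothelial, smooth muscle and pericyte, and mesothelial lists were 0.04 to 0.19. The part of these markers in the Id2 difference was not tested.

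Id3, the most abundant of the 9 genes by CPM and a close relative of Id1, had a higher mean in the libraries labelled CMS7KO and overlapping groups. Id3 (ENSMUSG00000007872, chromosome 4, 135870808 to 135873066) stood at 108, 140, 117 and 116 CPM in CMS7KO 1 to 4 and at 109, 44.8, 93.9 and 55.99 CPM in ACRE 1 to 4. ACRE 1 lay level with the lowest library labelled CMS7KO, while ACRE 2 and ACRE 4 lay far below. The means were 120.3 ± 13.5 CPM in CMS7KO and 75.8 ± 30.3 CPM in ACRE (SD, n = 4 each), a 1.59-fold difference (95% confidence interval 1.03 to 2.45, unadjusted p = 0.0398, edgeR adjusted p = 0.315). Without ACRE 2 and ACRE 4 the difference was 1.19-fold (interval 0.951 to 1.48, edgeR adjusted p = 0.549).

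Id1, a widely used readout of BMP signalling in endothelium, did not pass the test, and its direction depended on ACRE 2 and ACRE 4. Id1 (ENSMUSG00000042745, chromosome 2, 152578171 to 152579330) stood at 67.9, 80.9, 80.2 and 81.9 CPM in CMS7KO 1 to 4 and at 91.9, 33.9, 82.0 and 47.6 CPM in ACRE 1 to 4. ACRE 1 and ACRE 3 were above every library labelled CMS7KO, and ACRE 2 and ACRE 4 were below every one. The means of 77.7 ± 6.60 CPM in CMS7KO and 63.8 ± 27.5 CPM in ACRE (SD, n = 4 each) gave a ratio of 1.22 (95% confidence interval 0.771 to 1.92, edgeR adjusted p = 0.641). Without ACRE 2 and ACRE 4 the ratio was 0.892 (interval 0.722 to 1.10, edgeR adjusted p = 0.712).

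Id4, the member of the family best known from neural tissue, was near the limit of detection. It had 19, 37, 17 and 12 reads in CMS7KO 1 to 4 and 22, 13, 17 and 6 reads in ACRE 1 to 4. Id4 (ENSMUSG00000021379, chromosome 13, 48414704 to 48419502) averaged 1.32 ± 0.448 CPM in CMS7KO and 0.951 ± 0.301 CPM in ACRE (SD, n = 4 each), with overlapping groups. The 1.35-fold difference (95% confidence interval 0.721 to 2.52; edgeR adjusted p = 0.602) was within the spread, and it was 1.09-fold without ACRE 2 and ACRE 4 (interval 0.511 to 2.34, edgeR adjusted p = 0.954). Of the 9 genes, Id4 alone overlaps other genes in the table, A330033J07Rik and Gm49291 on the opposite strand, and these had 0 to 3 reads per library. Without strand, reads of such pairs cannot be told apart.

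Hey1, a bHLH repressor known from arterial endothelium, followed the pattern of Id1. Hey1 (ENSMUSG00000040289, chromosome 3, 8728419 to 8732316) stood at 22.8, 29.5, 27.5 and 27.5 CPM in CMS7KO 1 to 4 and at 31.4, 15.8, 27.8 and 15.7 CPM in ACRE 1 to 4. ACRE 1 had the highest level and ACRE 2 and ACRE 4 the lowest. The means were 26.8 ± 2.86 CPM in CMS7KO and 22.7 ± 8.14 CPM in ACRE (SD, n = 4 each), a ratio of 1.18 (95% confidence interval 0.797 to 1.75, edgeR adjusted p = 0.647), and the ratio was 0.904 without ACRE 2 and ACRE 4 (interval 0.707 to 1.16, edgeR adjusted p = 0.802).

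Hey2, which in the ventricle marks compact myocardium as well as arteries, had the opposite sign. Hey2 (ENSMUSG00000019789, chromosome 10, 30708355 to 30718797) stood at 4.49, 5.24, 4.61 and 4.48 CPM in CMS7KO 1 to 4 and at 5.32, 4.16, 8.10 and 8.50 CPM in ACRE 1 to 4. Of the 4 ACRE libraries, 3 lay above the libraries labelled CMS7KO and ACRE 2 lay below them. The means were 4.71 ± 0.361 CPM in CMS7KO and 6.52 ± 2.11 CPM in ACRE (SD, n = 4 each), a ratio of 0.750 (95% confidence interval 0.502 to 1.12, edgeR adjusted p = 0.438). Hey2 did not share the low values of Id1 and Hey1 in ACRE 4, its highest library.

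Atoh8, a bHLH factor induced by BMP in endothelial and liver cells, stood at 23.9, 19.4, 30.5 and 18.1 CPM in CMS7KO 1 to 4 and at 20.5, 18.9, 16.3 and 11.0 CPM in ACRE 1 to 4. The groups overlapped, CMS7KO 3 being the highest library and ACRE 4 the lowest. Atoh8 (ENSMUSG00000037621, chromosome 6, 72183161 to 72212561) averaged 22.98 ± 5.61 CPM in CMS7KO and 16.7 ± 4.15 CPM in ACRE (SD, n = 4 each), a ratio of 1.39 (95% confidence interval 0.96 to 2.02, edgeR adjusted p = 0.362). Without CMS7KO 3 the log2 fold change was 0.24 in place of 0.48.

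Bmper, whose product is secreted by endothelial cells, was the gene of the set with the lowest ratio. Bmper (ENSMUSG00000031963, chromosome 9, 23134372 to 23396496) stood at 3.41, 4.98, 2.72 and 5.23 CPM in CMS7KO 1 to 4 and at 9.19, 6.64, 6.03 and 4.15 CPM in ACRE 1 to 4. ACRE 4 alone lay within the range of the libraries labelled CMS7KO. The means were 4.08 ± 1.22 CPM in CMS7KO and 6.50 ± 2.08 CPM in ACRE (SD, n = 4 each), a ratio of 0.639 (95% confidence interval 0.398 to 1.03, edgeR adjusted p = 0.341). Unlike those of Id1 and Hey1, this direction held without ACRE 2 and ACRE 4, where the ratio was 0.544 (interval 0.330 to 0.895, edgeR adjusted p = 0.289).

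Grem1 (ENSMUSG00000074934, chromosome 2, 113576509 to 113588991), the antagonist of the DAN family also known from fibrosis, had 0 reads in all 8 libraries. Taking 0 reads to allow up to 3, its level was at most 0.156 to 0.290 CPM in single libraries, and at most 0.0482 CPM over the 4 libraries labelled CMS7KO and 0.0515 CPM over the 4 ACRE libraries. These limits cover counting error only.

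**Figure D2:**
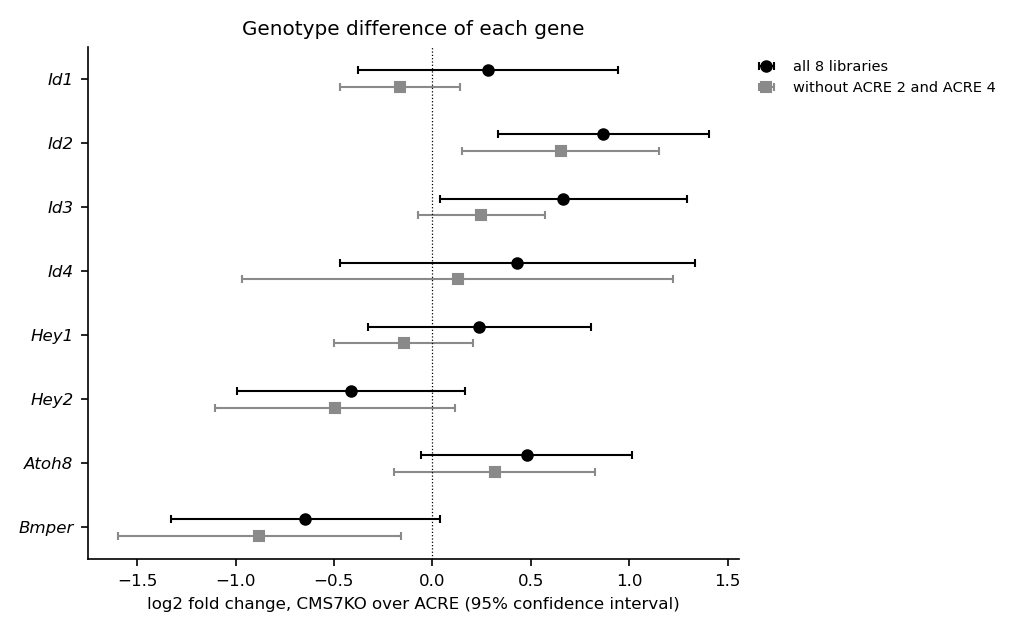
Log2 fold change of CMS7KO over ACRE with its 95% confidence interval for the 8 tested genes, with all 8 libraries (black circles) and without ACRE 2 and ACRE 4 (grey squares). Id1 and Hey1 move from above to below 0 when these libraries are left out, while Id2 and Bmper keep their sides.

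Compared per kilobase of the table's gene length, Id3 and Id1 led the set. Id3 had 67.2 ± 7.52 CPM per kilobase in CMS7KO and 42.3 ± 16.9 in ACRE, and Id1 67.0 ± 5.69 in CMS7KO and 55.0 ± 23.7 in ACRE (SD, n = 4 each). Id3 was above Id1 in 2 of the 8 libraries, so their order did not hold across libraries. A second tier held Atoh8 at 9.17 ± 2.24, Hey1 at 8.21 ± 0.875 and Id2 at 7.32 ± 1.63 CPM per kilobase in CMS7KO, against 6.65 ± 1.66, 6.95 ± 2.49 and 4.01 ± 1.03 in ACRE. Atoh8 exceeded Hey1 in 3 libraries and Hey1 exceeded Id2 in 6, so neighbours within this tier were not separated beyond their spread. Hey2 and Bmper followed, at 1.02 ± 0.0785 and 0.845 ± 0.252 in CMS7KO and at 1.42 ± 0.460 and 1.35 ± 0.430 in ACRE, with Hey2 higher in 5 of 8 libraries. Id4, at 0.342 ± 0.116 in CMS7KO and 0.247 ± 0.0781 in ACRE, was below both in all 8 libraries.

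The 8 genes differed in how they were spread over the control hearts. ACRE 2 and ACRE 4 were the lowest libraries of all for Id1, Id2, Id3, Id4 and Hey1, 5 of the 8 genes, and for 19.5% of all tested genes. Hey2, Atoh8 and Bmper did not show this order. Most endothelial markers moved with these libraries: 10 of 12 endothelial and 7 of 7 arterial endothelial markers were lowest in ACRE 2 and ACRE 4, and so were 5 of 5 erythroid markers. Fewer endocardial (1 of 4) and lymphatic endothelial markers (2 of 5) had this order, and 1 lymphatic marker was highest in these libraries. The erythroid markers summed to 765 to 1324 CPM in the libraries labelled CMS7KO, to 358 and 444 CPM in ACRE 2 and ACRE 4 and to 609.6 and 782 CPM in ACRE 1 and ACRE 3. The 12 endothelial markers, such as Pecam1, Cdh5 and Kdr, summed to 2653 to 3245 CPM in the libraries labelled CMS7KO, to 1659 and 2165 CPM in ACRE 2 and ACRE 4, and to 3376 and 3732 CPM in ACRE 1 and ACRE 3, with none of the 12 at 0. Cardiomyocyte markers ran the other way, with 7 of 12 highest in ACRE 2 and ACRE 4, against 22.5% of all tested genes. The part of these markers in the differences was not tested.

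**Figure D3:**
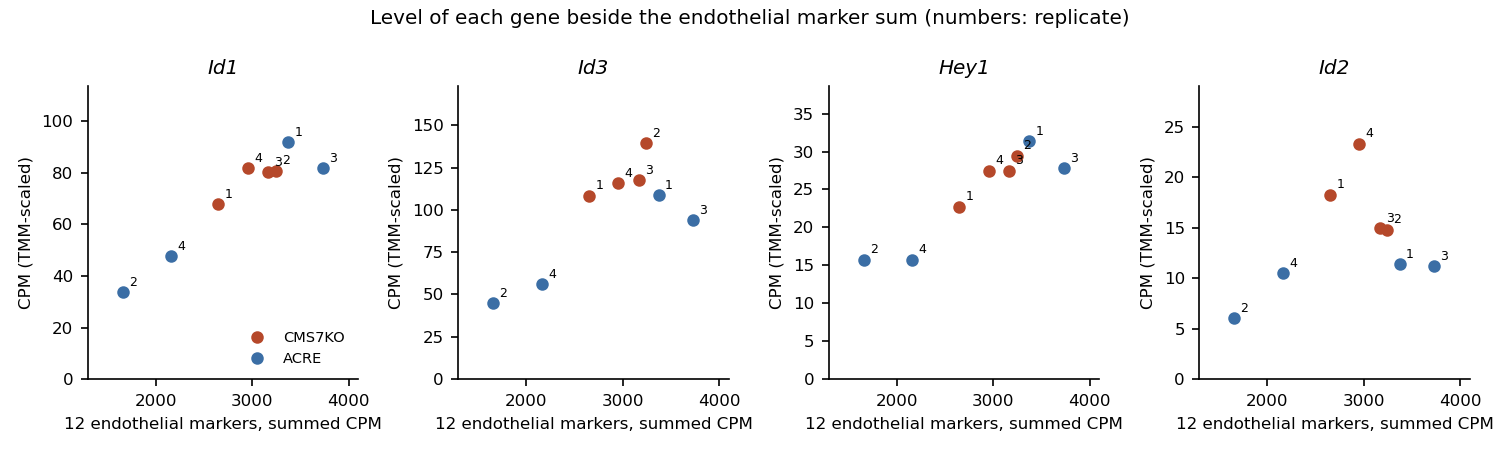
TMM-scaled CPM of Id1, Id3, Hey1 and Id2 (vertical axes) against the summed CPM of 12 endothelial markers (horizontal axes, not from 0), with 1 point per library. ACRE 2 and ACRE 4 lie at the left with the lowest values of each gene, and ACRE 1 and ACRE 3 at the right.

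Levels were also set against the endothelial sum. Id3 stood at 4.09, 4.30, 3.71 and 3.92 CPM per 100 CPM of endothelial markers in CMS7KO 1 to 4 and at 3.22, 2.70, 2.52 and 2.59 in ACRE 1 to 4. On this scale the groups did not overlap, with means of 4.00 ± 0.251 in CMS7KO and 2.75 ± 0.317 in ACRE (SD, n = 4 each). Id1 overlapped, at 2.49 to 2.77 in CMS7KO and 2.04 to 2.72 in ACRE, as did Hey1, at 0.858 to 0.930 in CMS7KO and 0.727 to 0.950 in ACRE. Id2 also overlapped, at 0.456 to 0.789 in CMS7KO and 0.300 to 0.486 in ACRE, through ACRE 4 alone. Its means, 0.601 ± 0.164 in CMS7KO and 0.371 ± 0.0808 in ACRE, stood in a ratio of 1.62, against 1.45 for Id3, 1.13 for Id1 and 1.06 for Hey1. Id4, at 0.0438 ± 0.0139 in CMS7KO and 0.0365 ± 0.0118 in ACRE, overlapped too. So did Bmper, Hey2 and Atoh8, with ratios of the means of 0.531, 0.617 and 1.14. This scale was chosen after the values were seen, and no test was run on it. The share of all genes without overlap on this scale was not computed.

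Ratios of raw counts within a library, which no library scaling touches, also separated the groups for Id3 over Hey1 and for Id1 over Id3. The ratio of Id1 to Id3 reads was 0.626, 0.579, 0.683 and 0.707 in CMS7KO 1 to 4 and 0.846, 0.756, 0.873 and 0.850 in ACRE 1 to 4. Every library labelled CMS7KO was below every ACRE library, ACRE 2 and ACRE 4 included, with means of 0.649 ± 0.0575 in CMS7KO and 0.831 ± 0.0515 in ACRE (SD, n = 4 each). The ratio of Id3 to Hey1 reads was 4.76, 4.74, 4.27 and 4.21 in CMS7KO 1 to 4 and 3.46, 2.84, 3.37 and 3.56 in ACRE 1 to 4. Its means were 4.50 ± 0.295 in CMS7KO and 3.31 ± 0.319 in ACRE, again without overlap, whereas Id1 to Hey1 overlapped at 2.91 ± 0.112 in CMS7KO and 2.76 ± 0.410 in ACRE. The ratio of Id2 to Hey2 was 3.83 ± 1.05 in CMS7KO and 1.55 ± 0.398 in ACRE, and that of Id2 to Bmper 4.57 ± 1.17 in CMS7KO and 1.63 ± 0.717 in ACRE, both without overlap. Of 28 pairs among the 8 genes, 9 did not overlap between the groups, 5 of them with Bmper as denominator. Among all pairs of the 16218 tested genes with reads in every library, 9.37% did not overlap. Pairs share genes and were looked at after the values were known, so no test is given.

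**Figure D4:**
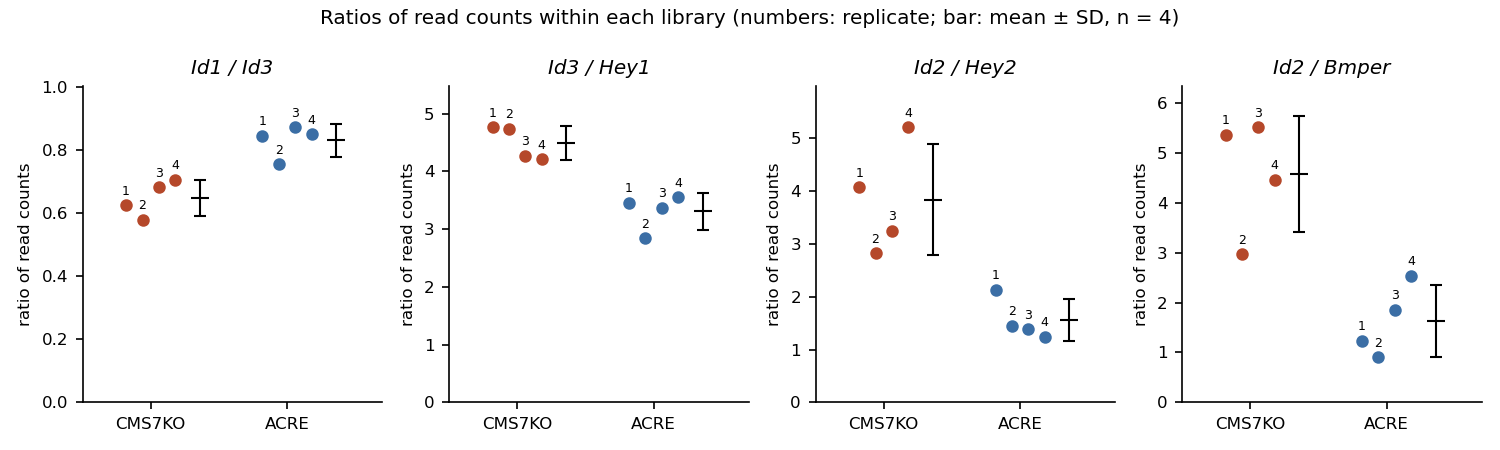
Ratios of read counts of 2 genes within each library, with 1 point per library (number: replicate) and bars for mean ± SD (n = 4). In each of the 4 ratios shown, the libraries labelled CMS7KO and the ACRE libraries do not overlap, with CMS7KO lower for Id1 over Id3 and higher for the other ratios.

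No gene of the set passed the test for the sex label or for its interaction with genotype. edgeR called 0% of all tested genes for the sex label and 0% for the interaction, and 0 of the 8 genes had an unadjusted p under 0.05 in either. The smallest unadjusted interaction p was that of Hey2 (0.0854, edgeR adjusted p close to 1). Its log2 fold change was -0.87 between libraries labelled female and 0.04 between those labelled male, with 2 libraries per combination. Since ACRE 3 and CMS7KO 3 did not match their label, these contrasts compare labels and not sexes. Without these 2 libraries the genotype log2 fold change of Hey2 was -0.28, that of Id2 0.99 and that of Id3 0.81 (edgeR adjusted p = 0.709, 0.286 and 0.330).

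In the rest of the BMP pathway no gene of the lists of ligands, receptors, Smads, other antagonists, other targets and Notch genes passed the threshold with edgeR. An unadjusted p under 0.05 was reached by 0 of 6 ligands, 1 of 10 receptors, 1 of 6 Smads (Smad6, also the 1 among 8 other targets), 5 of 12 antagonists and 2 of 14 Notch genes, against 15.3% of all genes, and DESeq2 called 1 gene of these lists, Sost. Of 14 BMP ligand genes 6 were tested, 3 higher and 3 lower by sign (median log2 fold change 0.02). Bmp6, the most abundant of them and a ligand of endothelial origin, averaged 46.8 ± 4.37 CPM in CMS7KO and 43.1 ± 14.6 CPM in ACRE, and Bmp4 averaged 14.9 ± 5.21 CPM in CMS7KO and 9.68 ± 3.01 CPM in ACRE (SD, n = 4 each; edgeR adjusted p = 0.802 and 0.364). By sign, 4 of 10 tested receptor and co-receptor genes were higher and 6 lower (median -0.06). The type I receptor gene Bmpr1a averaged 40.3 ± 3.52 CPM in CMS7KO and 76.8 ± 44.2 CPM in ACRE (edgeR adjusted p = 0.312), with 118 and 112 CPM in ACRE 2 and ACRE 4. The endothelial receptor genes Acvrl1 and Eng averaged 89.3 ± 6.62 and 538 ± 77.2 CPM in CMS7KO and 74.8 ± 23.8 and 435 ± 158 CPM in ACRE, and ACRE 2 and ACRE 4 were the lowest libraries for both.

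Among the 6 Smads of the BMP branch, the sign was positive for 4 and negative for 2, with a median log2 fold change of 0.23, and of 0.05 without ACRE 2 and ACRE 4. Smad6, the feedback inhibitor most tied to BMP, had the smallest p at 25.2 ± 2.88 CPM in CMS7KO and 17.3 ± 3.50 CPM in ACRE (SD, n = 4 each; log2 fold change 0.54, SE 0.17, unadjusted p = 0.0103, edgeR adjusted p = 0.267). Its groups met at 21.9 CPM, the level of both the lowest library labelled CMS7KO and the highest ACRE library. The receptor-regulated Smad1 and Smad5 averaged 36.5 ± 6.65 and 74.3 ± 7.93 CPM in CMS7KO and 32.7 ± 8.71 and 82.0 ± 7.90 CPM in ACRE. Of 13 other BMP target genes 8 were tested, 6 higher and 2 lower by sign (median 0.19, and -0.02 without ACRE 2 and ACRE 4). Smad6, Smad9 and the targeted gene Smad7, all higher by sign, are in both lists, so these 2 counts share genes. The other targets include Bambi, a decoy receptor, at 14.1 ± 2.92 CPM in CMS7KO and 15.0 ± 2.50 CPM in ACRE. Tmem100, a target in endothelium, stood at 8.50 ± 1.28 CPM in CMS7KO and 11.5 ± 3.28 CPM in ACRE.

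The other secreted or membrane-bound antagonists of BMP were mixed, with 7 of 12 tested genes higher and 5 lower by sign. Their median log2 fold change was 0.10, and 0.42 without ACRE 2 and ACRE 4. Of the 12, 3 had groups that did not overlap, against 9.59% of all tested genes. Sost, which encodes sclerostin, an inhibitor of Wnt signalling of the same protein family, stood at 1.43 ± 0.546 CPM in CMS7KO and 0.221 ± 0.154 CPM in ACRE (SD, n = 4 each; edgeR adjusted p = 0.205, DESeq2 adjusted p = 0.0113). Chrdl2, a relative of chordin, stood at 0.707 ± 0.411 CPM in CMS7KO and was at 0 in 3 of 4 ACRE libraries (edgeR adjusted p = 0.245). Crim1, a membrane-bound BMP-binding protein, stood at 51.2 ± 6.26 CPM in CMS7KO and 69.1 ± 7.20 CPM in ACRE (edgeR adjusted p = 0.288). Nog, Sostdc1 and Cer1 had too few reads to be tested.

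The Notch pathway was examined because Hey1 and Hey2 are also Notch targets. Of 14 tested genes 12 were higher and 2 lower by sign, with a median log2 fold change of 0.10, which was -0.12 without ACRE 2 and ACRE 4. The third Hey family gene, Heyl, which marks mural cells, stood at 58.2, 82.8, 69.2 and 60.7 CPM in CMS7KO 1 to 4 and at 44.1, 46.9, 51.2 and 53.5 CPM in ACRE 1 to 4. Its groups did not overlap, unlike those of Hey1 and Hey2 (log2 fold change 0.47, SE 0.16, edgeR adjusted p = 0.283). Hes1, a repressor induced by Notch, averaged 40.6 ± 8.39 CPM in CMS7KO and 29.5 ± 2.25 CPM in ACRE (SD, n = 4 each; edgeR adjusted p = 0.290). The ligand gene Dll4 and the receptor gene Notch1 averaged 64.4 ± 13.5 and 96.3 ± 7.14 CPM in CMS7KO and 57.4 ± 19.7 and 103 ± 24.4 CPM in ACRE.

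For scale, 10 genes of the TGF-beta/Smad2/3 branch that Smad7 also restrains were set beside them, Smad7 itself among the 10. Their median log2 fold change was 0.57 (0.46 without ACRE 2 and ACRE 4), with 9 higher and 1 lower by sign. Groups did not overlap for 6, against 9.59% of all tested genes. edgeR called 0 of the 10 (smallest adjusted p = 0.183, for Pmepa1), with 7 at an unadjusted p under 0.05, against 15.3% of all genes. DESeq2 called 3 of the 10, and 276 genes higher and 208 lower over all. This list follows an account of the same libraries and is no independent support.

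**Figure D5:**
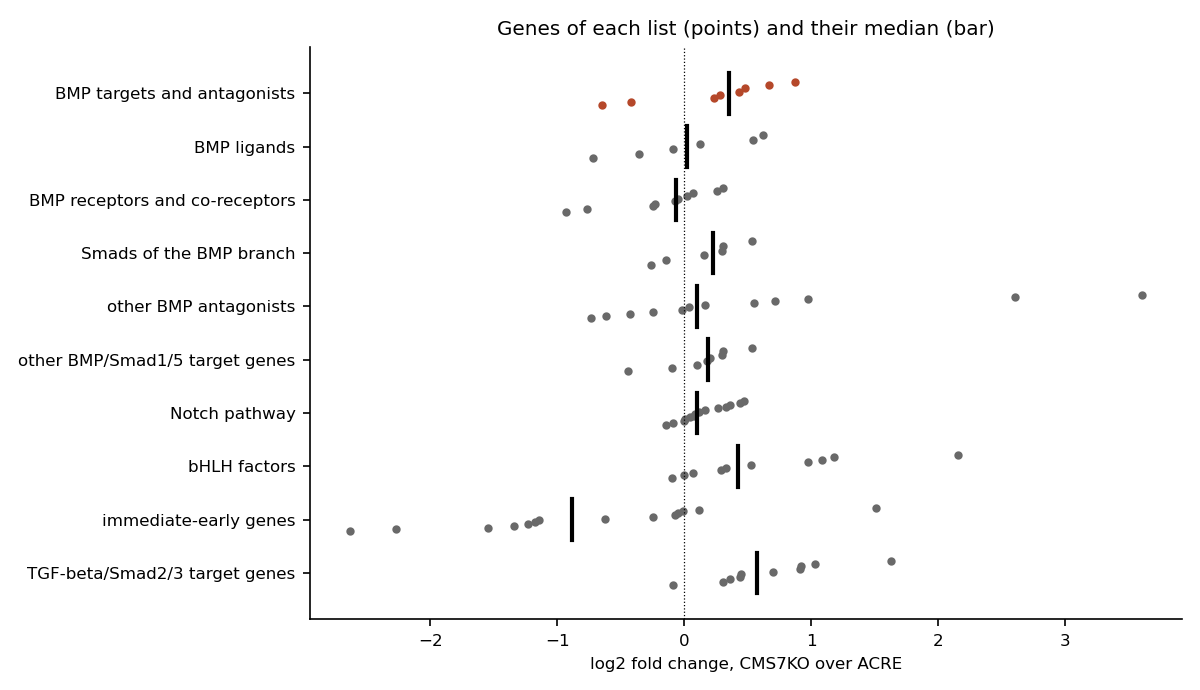
Log2 fold change of CMS7KO over ACRE for the 8 tested BMP targets and antagonists (top row) and the tested genes of 9 other lists, with 1 point per gene and a bar at the median. Medians are 0.36 for the top row, 0.19 for the other BMP/Smad1/5 targets, 0.57 for the TGF-beta/Smad2/3 targets and -0.88 for the immediate-early genes. Without ACRE 2 and ACRE 4 they are -0.01, -0.02, 0.46 and -0.37, in the same order.

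The genes whose profile over the 8 libraries was most like that of each gene were found by the root-mean-square difference of centred log2 CPM. Only genes with a mean of at least 5 CPM were searched, without pseudogenes and predicted or clone-named genes. Id4, at a mean of 1.13 CPM, was itself below that level. For Id1 they were Adcy4, Sipa1 and Gsdmd, with differences of 0.06, 0.06 and 0.07, where Id1 itself varied by 0.46. For Hey1 (0.37) they were Ifi35, Zdhhc18 and Zc3h7a, at 0.05, 0.06 and 0.07. For Id3 (0.54) they were Zfta, Cyp2d22 and Crlf2, at 0.10, 0.10 and 0.11. Id2 and Bmper had no such close match: the nearest to Id2 (0.54) was Dact1 at 0.19, and the nearest to Bmper (0.51) was Rfx2 at 0.26. For Atoh8 (0.39) it was Igsf6 at 0.10, for Hey2 (0.36) Zfp2 at 0.11 and for Id4 (0.43) Airn at 0.11.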

How the data were processed

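The deposited file holds unnormalized read counts for each gene, as whole numbers, with 1 column per heart. Per the labels' protocols, RNA was extracted with Trizol and libraries made from polyadenylated RNA. Tools listed in the submitters' processing notes are HTSeq 0.6.1, TopHat2 2.0, Cufflinks 2.1.1 and CASAVA. The notes name mm10 and GRCm38.p6, but only 2.85% of 52073 gene starts equal those of a GRCm38 annotation, so gene positions are as the table gives them, on a build not named here. Whether counting used strand was not stated. Promoter sequences are RefSeq's on GRCm38.p6.

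The genotype test was that of edgeR 4.0.16 in R 4.3.3 (filterByExpr on genotype and sex label, TMM, robust quasi-likelihood F test, sex label as covariate, 5 residual degrees of freedom), which tested 16780 genes and, of the 9 described here, 8. P values were Benjamini-Hochberg adjusted over all genes tested. Each SE was derived from the F statistic. DESeq2 1.42.0, limma 3.58.1 voom, other scaling and filters, and omission of libraries served as alternatives. The code was tested on simulated data. No 2 libraries agreed within sampling noise (smallest chi-square per degree of freedom 17.5). P values set the genotype difference against the spread between these hearts that the sex label left, a label that ACRE 3 and CMS7KO 3 did not match. Genes, lists and motifs were chosen with earlier results of these data known. Named are the 9 genes, Smad7, the 4 genes of a list with the smallest p at most, and the 3 most alike genes of each. Other list genes (Bambi, Smad1, Smad5, Acvrl1, Eng, Dll4, Notch1, Tcf3, Tcf4, Tcf12, Pecam1, Cdh5, Kdr, Nog, Sostdc1, Cer1) were chosen after their values were seen.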

Additional observations from a re-analysis of the deposited data

Results flagged for a closer look

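Of 218 sets of 4 libraries checked, 9 held a library set apart from the other 3 by a gap above Dixon's 95% critical value, where chance sets apart about 1 in 20. Among the genes described here, Id1 was low in CMS7KO 1 (67.9 CPM), Id2 was low in ACRE 2 (6.03 CPM) and Hey2 was high in CMS7KO 2 (5.24 CPM). Among the other named genes, Dll1 was high in CMS7KO 2 (18.4 CPM), Chrdl2 was the one value above 0 in ACRE 2 (0.201 CPM), Fosb was high in ACRE 4 (9.65 CPM), Ltbp2 was high in ACRE 2 (59.8 CPM) and C1qc was low in ACRE 4 (36.5 CPM). The summed mesothelial markers were low in ACRE 2 (10.7 CPM). Causes were not tested.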

How the results depend on the processing

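Over 17 alternatives to the edgeR fit, Id2, Id3, Id4, Atoh8, Hey2 and Bmper kept their direction in all. Id1 and Hey1 reversed without ACRE 2 and ACRE 4, an alternative added after seeing the data, at log2 fold changes of -0.17 and -0.15. In leave-one-out fits Id1 ranged from 0.06 to 0.63, Hey1 from 0.07 to 0.48, Id3 from 0.45 to 0.95, Id2 from 0.70 to 1.05, Id4 from 0.28 to 0.66, Hey2 from -0.58 to -0.32, Atoh8 from 0.24 to 0.61 and Bmper from -0.92 to -0.49, with 0 of these genes called, and the median of the 8 from 0.18 to 0.54. DESeq2 and the fit with no filter each called 1 of the 8, Id2. The count of all genes called, 3 higher and 3 lower, moved to 276 and 208 with DESeq2, to 456 and 912 with no filter on low counts, and to 86 and 89 without ACRE 2 and ACRE 4. It was 0 and 1 without ACRE 3 and CMS7KO 3, also added after seeing the data, and 5 lower without the sex label. Leaving out 1 library gave 0 to 10 higher and 0 to 7 lower, with 0 and 0 (edgeR; 2173, 1531 and 1487 unadjusted) without CMS7KO 1, 2 or 3. With the replicate number as a block there was 1 gene higher and 2 lower. Same-numbered libraries deviated together with correlations of -0.19 to 0.20, and 2 of 4 libraries labelled CMS7KO correlated best with their own number, so the numbers were not taken as pairs. Of 231 list medians recomputed, 22 moved by more than the spread between replicates. The cause of these changes was not tested. Id4 had 6 to 37 reads per library and Grem1 none.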

Other observations

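The list of bHLH factors, among them E proteins that Id proteins tie up, held genes with wider separation than the Id genes. The E-protein genes Tcf3 and Tcf12 averaged 63.8 ± 8.30 and 51.6 ± 8.59 CPM in the libraries labelled CMS7KO and 52.3 ± 16.2 and 55.3 ± 6.33 CPM in ACRE (SD, n = 4 each), with overlapping groups. The E-protein gene Tcf4, the most abundant of these, averaged 211 ± 40.8 CPM in CMS7KO and 211 ± 59.0 CPM in ACRE, also overlapping. Lyl1, a blood and endothelial factor, stood at 29.5, 37.0, 33.9 and 24.2 CPM in CMS7KO 1 to 4 and at 15.6, 12.8, 16.3 and 10.04 CPM in ACRE 1 to 4 (log2 fold change 1.18, edgeR adjusted p = 0.150). Its groups did not overlap, nor did those of Tcf21, a fibroblast factor, at 18.4 ± 7.20 CPM in CMS7KO and 9.14 ± 1.08 CPM in ACRE, and of Twist2, a mesenchymal factor, at 1.33 ± 0.368 CPM in CMS7KO and 0.297 ± 0.224 CPM in ACRE (edgeR adjusted p = 0.210 and 0.215). Of 10 tested genes 9 were higher and 1 lower by sign, with a median log2 fold change of 0.43, and of 0.11 without ACRE 2 and ACRE 4. Groups did not overlap for 3 of the 10, against 9.59% of all tested genes. The summed macrophage and fibroblast markers given beside Id2 were likewise higher in the libraries labelled CMS7KO, without overlap, and their part in these values was not tested. Tcf21 is also one of the fibroblast markers, so the bHLH and fibroblast lists share a gene.

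Immediate-early genes ran the other way. In the libraries labelled CMS7KO 12 of 14 were lower and 2 higher by sign, with a median log2 fold change of -0.88 (-0.37 without ACRE 2 and ACRE 4). Groups did not overlap for 5 of the 14, against 9.59% of all tested genes. edgeR called 0 of the 14 (smallest adjusted p = 0.0784, for Fosb), with 9 at an unadjusted p under 0.05, against 15.3% of all genes. DESeq2 called 6 of the 14, and 276 genes higher and 208 lower over all. Of the 14, 5 were highest in ACRE 2 and ACRE 4, the libraries in which Id1 and Id3 were lowest, against 22.5% of all tested genes.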
